A study of Mus musculus with 6 samples.

Results

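The genes described here are 10 genes of the YAP/TEAD transcription programme and its control in mouse embryonic stem cells (mESCs), which are pluripotent and are kept in culture as lines. They are Yap1 and Wwtr1, which encode the co-activators YAP and TAZ, the target genes Ctgf (Ccn2 in current annotation), Cyr61 (Ccn1), Ankrd1, Amotl2, Lats2, Ajuba and Axl, and Thbs1, which encodes thrombospondin-1. They were taken by symbol, as 10 of the 43309 genes counted, and the choice was made with earlier results of the same comparison in view. The values of the 10 genes between the groups are therefore given as a description, with no test.

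The data are 6 stranded mRNA libraries, each from a different mESC line of strain J1 (129SV), grown on gelatin in serum-containing medium without feeder cells. The control group is 3 lines labelled Zbtb24 wild-type (2lox/+), in which 1 allele carries both loxP sites and the other is wild-type. The other group is 3 lines labelled Zbtb24 knockout (1lox/1lox), in which both alleles are labelled as recombined. Each line was described as independently derived. For the median gene, however, pairs of libraries within a group differed by only 1.12 to 1.60 times the variance of counting error. A group's spread for the median gene thus held little beyond counting error. Over all genes together it exceeded counting error in each of the 6 pairs within a group (chi-square test, p at most 3.34e-34). Between the lines labelled knockout the coefficient of variation was 6.01% for Ajuba, 10.2% for Ctgf and 22.5% for Thbs1, beside 1.55% for Yap1. Differences between clones cannot be told from technical error in this spread. Library totals ranged from 26987179 to 27754105 counts in control and from 25042261 to 28838924 counts in the libraries labelled knockout.

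YAP and TAZ have no DNA-binding domain of their own and act on genes mainly through the TEAD proteins, which bind DNA. The Hippo kinases, with LATS1 and LATS2 as the last step, phosphorylate YAP and TAZ, which keeps them out of the nucleus. Phosphorylation and nuclear localisation are not seen in an mRNA count. Several targets encode proteins that restrain YAP, so the target list holds both outputs of the pathway and parts of its feedback.

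The count of Zbtb24 itself (ENSMUSG00000019826, chr10:41450383-41465574, plus strand) went against the label. The control lines had 510, 512 and 489 counts, and the lines labelled knockout had 888, 925 and 1039. All 3 lines labelled knockout were higher, at 36.1 ± 1.88 cpm (counts scaled to library size, SD, n = 3) against 18.2 ± 0.41 cpm (log2 fold change 0.99, SE 0.05, edgeR quasi-likelihood test, adjusted p = 4.32e-23). The counts do not show which part of the transcript is present, so they neither settle nor replace the genotype, and every direction below is stated for "the libraries labelled knockout".

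The TEAD proteins are known to bind the 6 bases GGAATG, read on either strand as GGAATG or CATTCC. These letters were searched in RefSeq promoter windows (GRCm38.p6) of 300 bases, 250 before the annotated start site and 50 from it on. A window was found for 8 of the 10 genes, and Ctgf and Thbs1 had no entry. The stretches of 30 bases that hold the letters are shown because the listed targets are defined by the factor that reads them. Each is written 5′ to 3′ in the direction of its gene, with GGAATG or CATTCC in capitals.
Yap1: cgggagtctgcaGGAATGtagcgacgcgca
Wwtr1: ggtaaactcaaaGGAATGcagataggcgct
Cyr61: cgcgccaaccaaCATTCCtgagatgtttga
Ankrd1, farther from the start: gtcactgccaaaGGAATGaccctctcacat
Ankrd1, nearer to the start: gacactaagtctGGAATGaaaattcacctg
Amotl2: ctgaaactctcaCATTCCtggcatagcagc
Lats2: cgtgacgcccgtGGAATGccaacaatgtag
Ajuba, farther from the start: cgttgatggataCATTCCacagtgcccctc
Ajuba, nearer to the start: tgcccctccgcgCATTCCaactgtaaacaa
Axl: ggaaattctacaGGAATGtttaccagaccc

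The printed stretches lie at chr9:8004720-8004749 for Yap1, chr3:57576029-57576058 for Wwtr1, chr3:145650071-145650100 for Cyr61, chr19:36120037-36120066 and chr19:36119950-36119979 for Ankrd1, and chr9:102717727-102717756 for Amotl2. Those of Lats2, Ajuba and Axl lie at chr14:57746102-57746131, chr14:54577830-54577859, chr14:54577808-54577837 and chr7:25788949-25788978. Amotl2 is read from the plus strand and the others from the minus strand. The stretches of Ankrd1 and Amotl2 lie in annotated exons of other transcripts of the same genes, that of Lats2 lies partly in an annotated exon, and the other stretches overlap no annotated exon of their gene.

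The letters were present in 8 of the 8 genes with a window, against 16.6% of the 27025 genes with a window in the table (4481 genes). The other published YAP/TAZ targets with a window held them in 2 of 10 genes (20%), near the share of all genes, the upstream Hippo genes in 5 of 23, the relatives of the 10 genes in 2 of 14, and the TEAD and cofactor genes in 4 of 6. Upstream of the start site the letters were present in 7 of the 8 genes first named, against 14.4% of all genes, and those of Lats2 began 4 bases after the start base. Ankrd1 and Ajuba held them at 2 places in a single window, as did 1.57% of all genes. The AP-1 motif TGANTCA, which reads the same on both strands, was in 0 of the 8 genes (8.97% of all genes), and the CArG box bound by serum response factor was in 0 of the 8 (1.81% of all genes). A run of letters is a description of the sequence and not a bound site, and a window of this size does not hold distal enhancers.

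**Figure D1:**
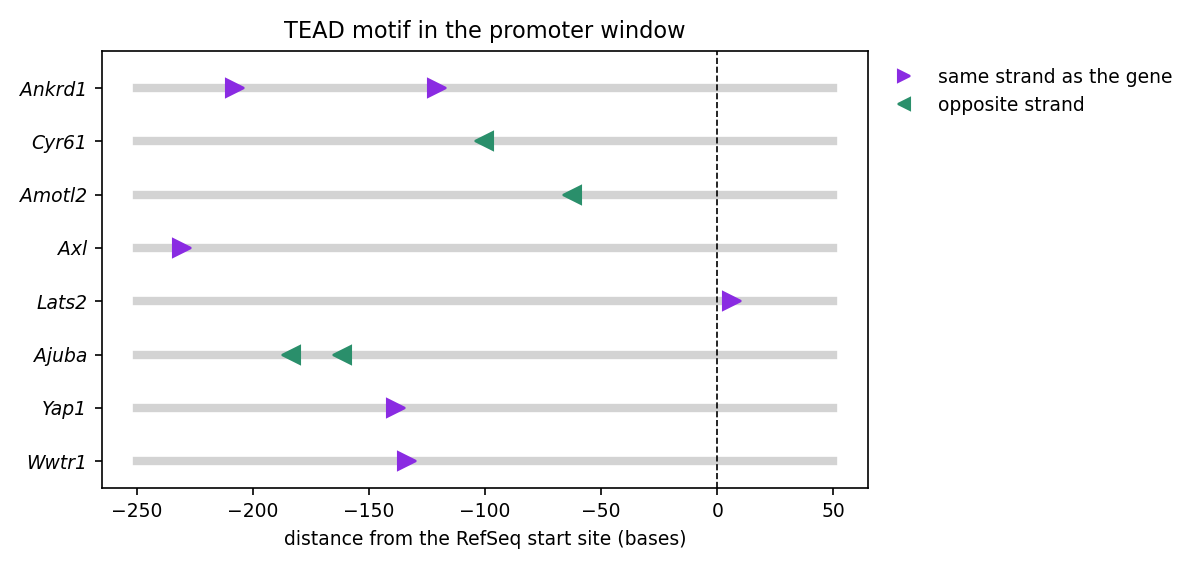
Positions of GGAATG or CATTCC in the promoter windows of the 8 genes with a RefSeq entry; the horizontal axis is the distance from the annotated start base in bases, and each mark is 1 occurrence, purple on the strand of the gene and green on the other strand. The marks spread over the upstream stretch without a shared position, and only that of Lats2 lies after the start.

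Motif letters were also counted over all genes tested that had a window, the genes described here included, by their change between the groups. They were present in 16.7% of the genes called lower in the libraries labelled knockout with a window (704 of 4213), in 13.3% of those called higher (584 of 4375) and in 14.0% of those not called (469 of 3361). Among genes called lower by at least 1 on the log2 scale the share was 18.9%, and among genes called higher by at least 1 it was 17.7%. The shares of the strongly lower and the strongly higher genes lay close to each other, and no test was made of their difference.

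All 10 genes were lower in the libraries labelled knockout, and in none of them did the groups overlap. In the same comparison 35.2% of the 16823 genes tested were called lower at an adjusted p of at most 0.05, 34.4% were called higher and 69.5% were called in either direction. The groups did not overlap in 71.5% of the genes tested, and in 36.2% they did not overlap with the libraries labelled knockout lower. In 7 of the 10 genes the fall was at least 1 on the log2 scale. Of the genes tested 11.8% were called lower with a fall this large. Nothing is read from these counts, because this contrast was in view when the genes were chosen. The median log2 fold change of the 10 genes was -2.10, and the median of all genes tested was -0.00036. The summed level of the 10 genes was 864 to 886 cpm in the control libraries and 394 to 422 cpm in the libraries labelled knockout.

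**Figure D2:**
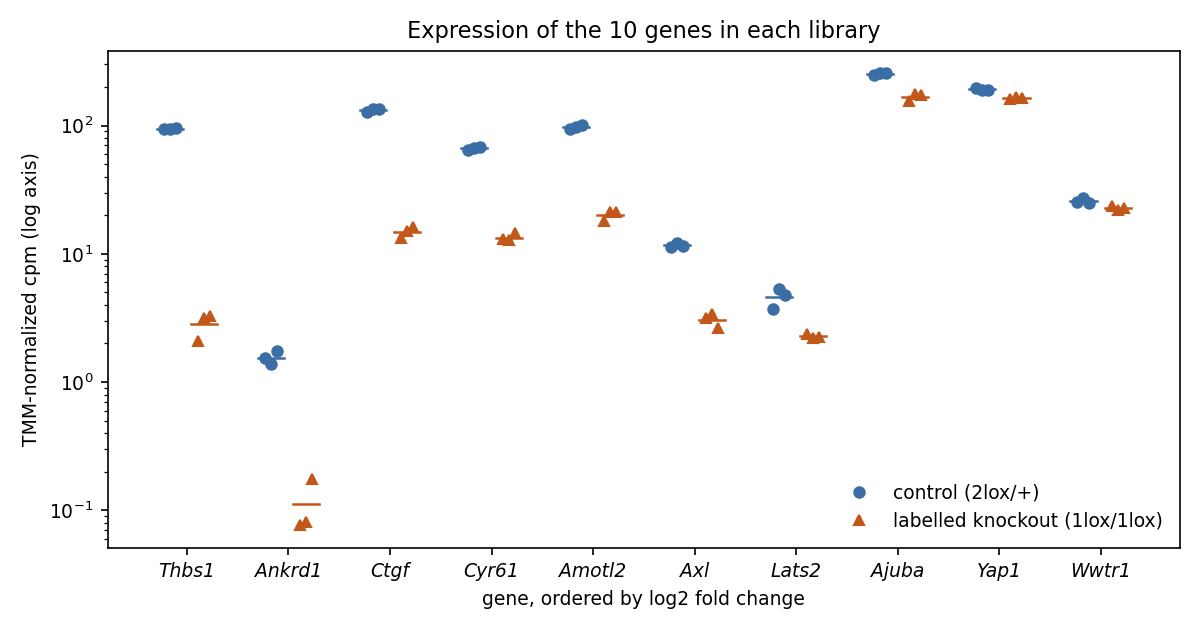
Level in cpm of each of the 10 genes in each of the 6 libraries, on a log axis, with blue circles for control, orange triangles for the libraries labelled knockout and short lines for group means. Thbs1 spans 93.9 to 95.5 cpm in control and 2.11 to 3.26 cpm in the libraries labelled knockout, while the points of Yap1 and Wwtr1 lie close together.

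The co-activators themselves had the smallest differences of the 10. Yap1 (ENSMUSG00000053110, chr9:7931999-8004596, minus strand) had 5501, 5166 and 5210 counts in control and 4236, 4118 and 4666 in the libraries labelled knockout. Scaled to library size these were 191 ± 3.9 cpm and 165 ± 2.6 cpm (SD, n = 3), a log2 fold change of -0.21 (SE 0.026). Every control line lay above every line labelled knockout, but the control level was only 1.16 times the other, and 33.7% of the genes tested had a lower log2 fold change than Yap1.

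Wwtr1 (ENSMUSG00000027803, chr3:57455649-57575910, minus strand), the gene of TAZ, had 719, 743 and 688 counts in control and 612, 536 and 648 in the lines labelled knockout. The levels were 25.9 ± 1.03 cpm and 22.7 ± 0.86 cpm, a log2 fold change of -0.19 (SE 0.050). The ratio of the groups was 1.14, close to that of Yap1, and the groups again did not overlap.

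Ctgf and Cyr61 encode secreted matricellular proteins of the CCN family and are the targets most often used as a readout of YAP. Ctgf (ENSMUSG00000019997, chr10:24595442-24598683, plus strand) had 3572, 3721 and 3669 counts in control and 344, 373 and 456 in the libraries labelled knockout. This was 132 ± 4.5 cpm against 14.8 ± 1.5 cpm, a log2 fold change of -3.15 (SE 0.044) and a control level 8.88 times the other. Per length, the control level of Ctgf was at percentile 91.9 of the genes tested.

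Cyr61 (ENSMUSG00000028195, chr3:145646976-145649981, minus strand) had 1818, 1822 and 1869 counts in control and 339, 313 and 409 in the lines labelled knockout. The levels were 66.3 ± 1.7 cpm and 13.4 ± 0.96 cpm, a log2 fold change of -2.30 (SE 0.048). The ratio of the groups was 4.94, and the lowest control line was far above the highest line labelled knockout. Cyr61 is the nearest relative of Ctgf among the 10 genes, and both were lower.

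Ankrd1 encodes a nuclear ankyrin repeat protein best known from heart and stretched muscle, and it was the gene of the 10 with the fewest counts. It (ENSMUSG00000024803, chr19:36111961-36120099, minus strand) had 43, 38 and 48 counts in control and 2, 2 and 5 in the libraries labelled knockout. Ankrd1 passed the count minimum only through the control lines, so a gene with this pattern had to differ. The summed counts gave a ratio of 13.6, with a 95% interval for counting error of 6.96 to 30.5. The fitted log2 fold change was -3.72 (SE 0.35) and moved between -4.22 and -3.51 as 1 library at a time was left out.

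Thbs1 (ENSMUSG00000040152, chr2:118111876-118127133, plus strand) encodes a large secreted glycoprotein of the matrix that binds CD47, CD36 and integrins and can activate latent TGF-beta. It had 2658, 2579 and 2621 counts in control and 55, 78 and 92 in the lines labelled knockout. This was the widest difference of the 10 genes, with no overlap. The level was 94.6 ± 0.81 cpm in control against 2.84 ± 0.64 cpm, with a log2 fold change of -5.05 (SE 0.064).

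The control level of Thbs1 was 33.1 times that of the libraries labelled knockout, and the interval for counting error was 29.1 to 38.1 on the summed counts. Only 0.345% of the genes tested had a lower log2 fold change. The control lines agreed closely, with a coefficient of variation of 0.861%, while the lines labelled knockout varied by 22.5%, with the first at 2.11 cpm and the others at 3.17 and 3.26 cpm. With any single library left out the log2 fold change lay between -5.17 and -4.88.

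Amotl2, Lats2 and Ajuba encode proteins that act back on the pathway. Amotl2 (ENSMUSG00000032531, chr9:102716672-102733418, plus strand), an angiomotin that binds YAP and holds it at cell junctions, had 2623, 2701 and 2757 counts in control and 467, 522 and 597 in the libraries labelled knockout. This was 97.3 ± 3.7 cpm against 20.1 ± 1.9 cpm, a log2 fold change of -2.28 (SE 0.044). The ratio of 4.84 was near that of Cyr61.

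Lats2 (ENSMUSG00000021959, chr14:57689662-57758388, minus strand), a kinase that inhibits YAP, had 104, 146 and 130 counts in control and 62, 54 and 64 in the lines labelled knockout. The levels were 4.58 ± 0.82 cpm and 2.28 ± 0.091 cpm, a log2 fold change of -1.004 (SE 0.135). The control lines of Lats2 varied by 17.9%, more than those of the other 9 genes, and the first control line was the lowest. The log2 fold change lay between -1.14 and -0.89 with any 1 library left out.

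Ajuba (ENSMUSG00000022178, chr14:54567472-54577558, minus strand) encodes a LIM protein that binds LATS kinases and is the most abundant of the 10 mRNAs. It had 6947, 7013 and 7005 counts in control and 4087, 4299 and 4893 in the lines labelled knockout. The level was 252 ± 4.8 cpm in control against 168 ± 10.1 cpm, a log2 fold change of -0.59 (SE 0.029), which is smaller than that of the other listed targets.

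Axl (ENSMUSG00000002602, chr7:25757273-25788705, minus strand) encodes a receptor tyrosine kinase whose ligand is Gas6. It had 316, 333 and 317 counts in control and 83, 83 and 75 in the lines labelled knockout. The levels were 11.6 ± 0.45 cpm and 3.07 ± 0.37 cpm, a log2 fold change of -1.93 (SE 0.097) and a ratio of 3.8. The lines labelled knockout lay between 2.66 and 3.37 cpm, far from the control range of 11.2 to 12.1 cpm.

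The 10 genes lie on 7 chromosomes, and each was compared with its neighbours because whole stretches of some chromosomes moved together in these libraries. The median log2 fold change of the genes on each member's chromosome lay between -0.07 and 0.04, and that of the genes in its window of 20 Mb between -0.09 and 0.03. None of the 10 genes therefore sat in a stretch whose median was as far from 0 as its own fold change.

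Levels of different genes were compared per length, as the cpm divided by the kilobases of the longest annotated transcript (FPKM). In control the order was Ajuba (74.3), Ctgf (53.0), Yap1 (36.2), Cyr61 (32.9), Amotl2 (21.98), Thbs1 (16.2), Wwtr1 (5.51), Axl (2.73), Lats2 (0.883) and Ankrd1 (0.769). Of these neighbours only Lats2 and Ankrd1 overlapped between lines. The highest and the lowest of the 10 were 96.6 times apart.

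In the libraries labelled knockout the order of FPKM was Ajuba (49.5), Yap1 (31.2), Cyr61 (6.63), Ctgf (5.95), Wwtr1 (4.84), Amotl2 (4.54), Axl (0.720), Thbs1 (0.486), Lats2 (0.439) and Ankrd1 (0.055). The neighbours Cyr61 and Ctgf, Wwtr1 and Amotl2, and Thbs1 and Lats2 overlapped between lines. Ctgf went from above Yap1 to below it, and Thbs1 went from above Wwtr1 and Axl to below both.

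**Figure D3:**
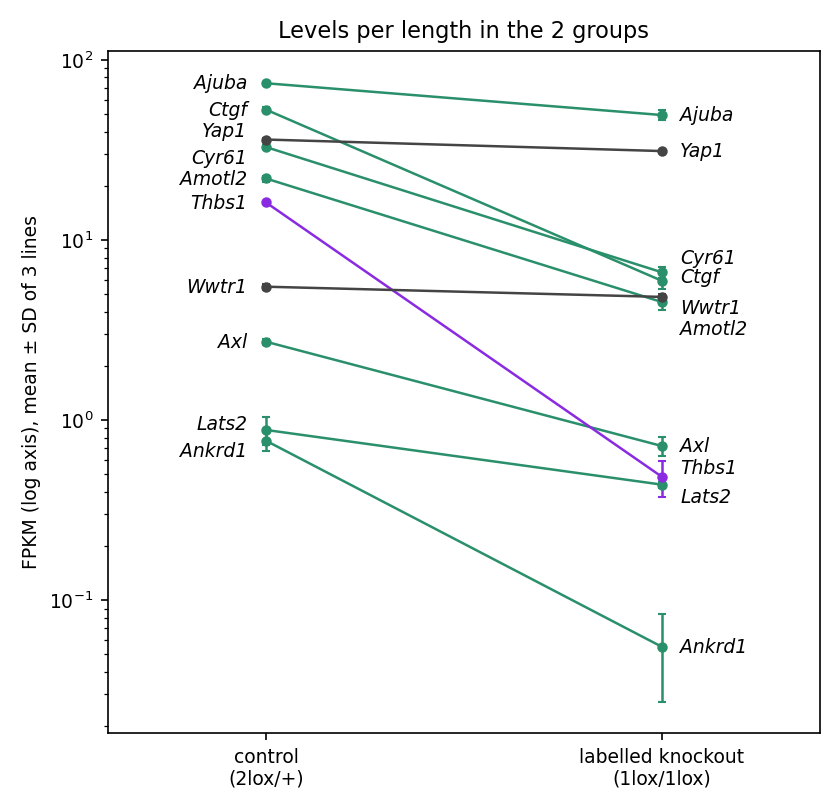
Mean FPKM of the 10 genes in the 2 groups on a log axis, with error bars for the SD of 3 lines; black lines are Yap1 and Wwtr1, green lines the listed targets and the purple line Thbs1. The lines of Yap1, Wwtr1 and Ajuba are nearly flat, and that of Thbs1 is the steepest.

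The 3 genes with the pattern most like that of Thbs1 were found by the distance between log2(cpm + 1) values over the 6 libraries, each gene centred on its own mean, among the 11114 other genes whose mean count was 100 or more. Krt8, a keratin of simple epithelia, was nearest at a distance of 0.478. Krt8 had 6234, 6249 and 6281 counts in control and 244, 258 and 339 in the lines labelled knockout. Acta1, skeletal muscle alpha-actin, followed at 0.744 with 22.6 cpm in control and 0.407 cpm in the libraries labelled knockout, and Sned1, a matrix protein gene, at 0.747 with 42.8 and 1.39 cpm. With 6 libraries in 2 groups this distance is set mainly by the difference between the groups on that scale. There the added 1 shrinks the difference of genes near 0 cpm, so the order does not follow the fold changes. The log2 fold changes were -4.41 for Krt8, -5.78 for Acta1 and -4.94 for Sned1, beside -5.05 for Thbs1.

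The other genes of the pathway were taken from lists written without regard to direction but with earlier results known. Of 16 other published YAP/TAZ targets 13 could be tested, and of these 10 were lower and 3 were higher (median of the log2 fold changes -0.79), where 35.2% of all genes tested were lower, 34.4% were higher and 69.5% were called. The widest falls among them were those of Igfbp3, an IGF-binding protein gene, from 104 to 16.0 cpm (log2 fold change -2.70, SE 0.041, adjusted p = 9.65e-45), of F3, the gene of tissue factor, from 21.1 to 4.96 cpm (-2.08, SE 0.075, adjusted p = 6.48e-29), and of Tgfb2, from 4.74 to 1.45 cpm (-1.70, SE 0.143, adjusted p = 7.65e-15), in a window with a median of 0.49. Nuak2, Gadd45a and Asap1 rose, by log2 fold changes of 0.63, 0.25 and 0.19, and the window of 20 Mb around Nuak2 had a median of 0.51. The listed targets outside the 10 genes thus moved in both directions. Ptpn14 stands both in this list and in that of the upstream genes.

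**Figure D4:**
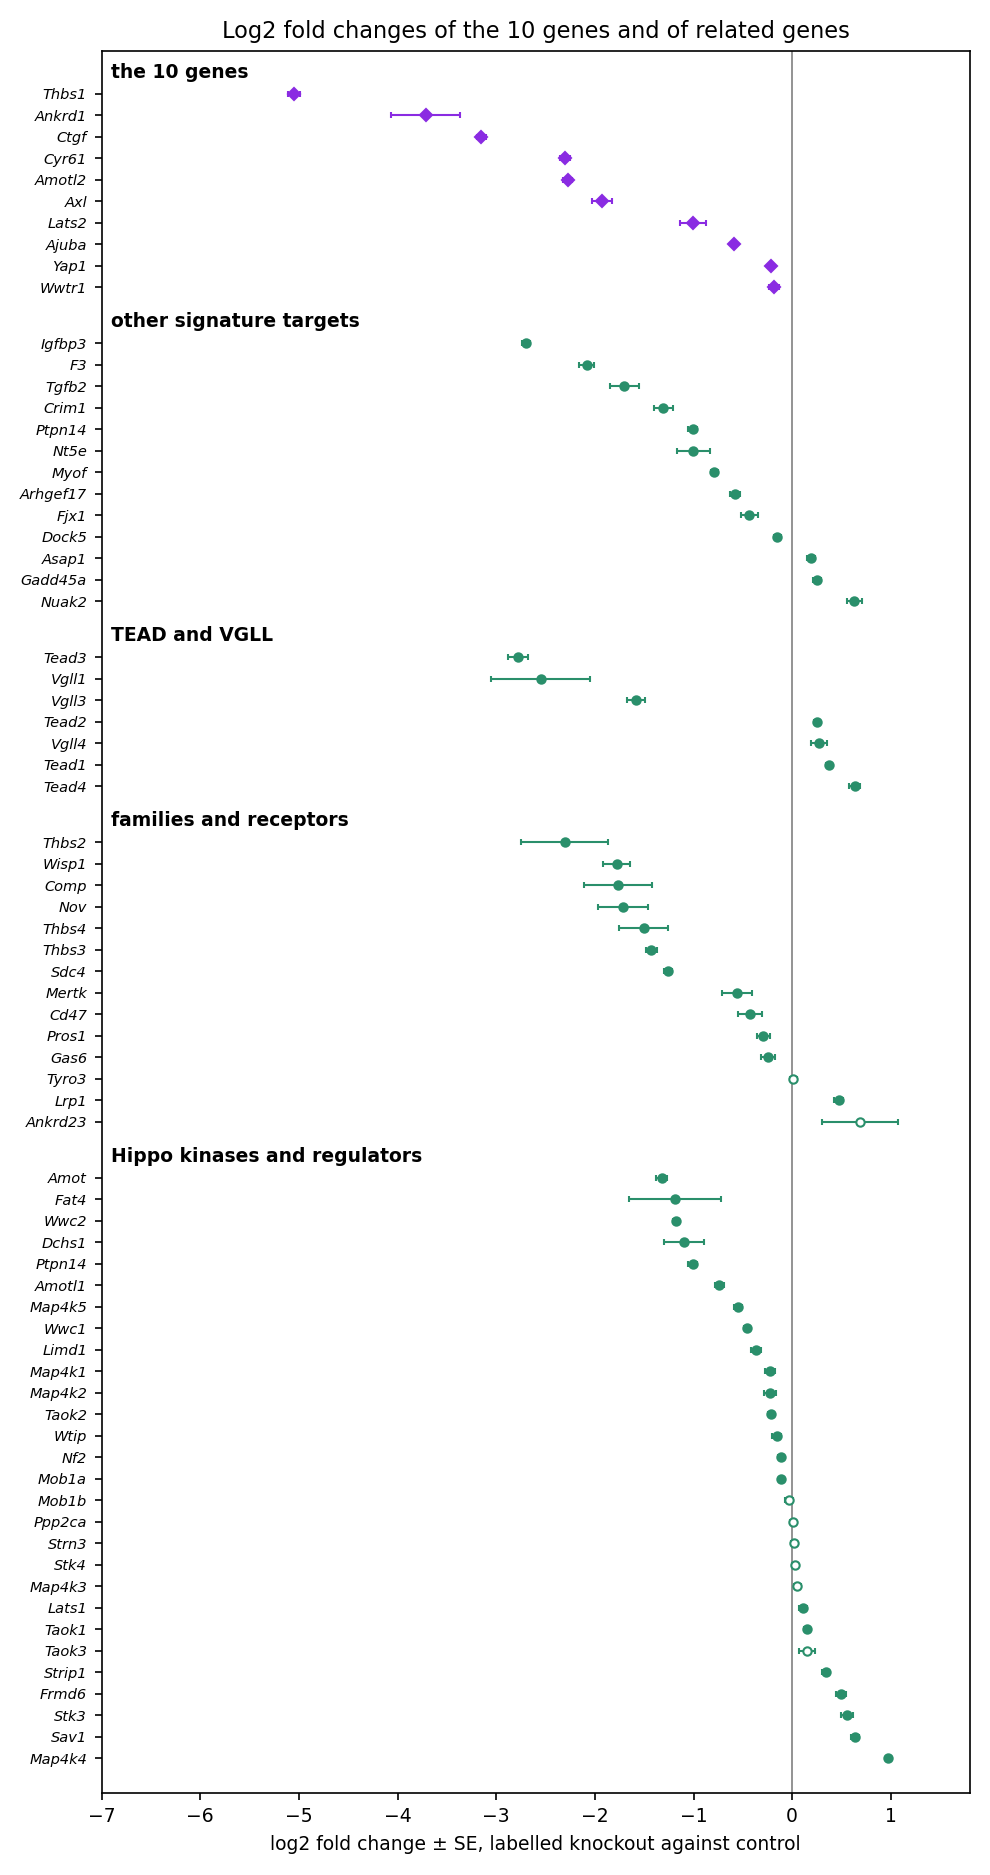
Log2 fold change (libraries labelled knockout minus control) of the 10 genes, drawn as diamonds, and of the genes of 4 related lists, drawn as circles, with bars for the standard error; open circles did not pass an adjusted p of 0.05. All 10 diamonds lie below 0, and each of the other lists has genes on both sides of 0.

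The TEAD genes, which encode the DNA-binding partners of YAP, did not move together. Tead1 rose from 171 to 221 cpm (log2 fold change 0.37, SE 0.026, adjusted p = 9.26e-18) and Tead2 from 91.1 to 108 cpm (0.25, SE 0.030, adjusted p = 2.37e-10). Tead4 rose by 0.63 (SE 0.054, adjusted p = 1.23e-14), in a window of chromosome 6 with a median of 0.59. Tead3 fell, with 388, 410 and 419 counts in control and 46, 52 and 70 in the libraries labelled knockout (log2 fold change -2.78, SE 0.102, adjusted p = 1.02e-28).

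Of the 8 genes of TEAD proteins and their Vestigial-like cofactors 7 were tested, and 4 rose and 3 fell, beside 34.4% higher and 35.2% lower over all genes tested. Vgll1, among the falls, passed the count minimum only through control. Vgll4, which competes with YAP for TEAD, rose by 0.27 (SE 0.082, adjusted p = 0.00335), and its window had a median of 0.45. Vgll3 fell, with a log2 fold change of -1.58 (SE 0.093, adjusted p = 1.64e-20).

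Among 28 upstream genes of the Hippo pathway 15 fell, 7 rose and 6 did not pass the test, with a median log2 fold change of -0.11. The share called in either direction, 78.6%, was near the 69.5% over all genes tested. By direction 53.6% were lower, beside 35.2% of all genes tested, and 7 of the 28 were higher, beside 34.4%. Fat4, among the falls, passed the count minimum only through control. The core kinase genes did not follow Lats2. Stk3 rose by 0.55 (SE 0.059, adjusted p = 1.02e-11), and Sav1, the gene of their scaffold, by 0.64 (SE 0.040, adjusted p = 2.43e-19). Stk4 was not called (0.03, SE 0.029, adjusted p = 0.423). Lats1 was higher by 0.11 (SE 0.044, adjusted p = 0.0277), a call lost with DESeq2 (adjusted p = 0.113), and also without control replicate 1, 2 or 3 or knockout replicate 2 or 3 (adjusted p from 0.0522 to 0.123 in edgeR).

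Nf2, the gene of the upstream protein merlin, fell by 0.11 on the log2 scale (SE 0.026, adjusted p = 1.40e-04). Falls of at least 1 that passed the test were seen in 5 of the 28 genes, Fat4 included, and in 11.8% of all genes tested. Among them were Wwc2 (-1.18, SE 0.035, adjusted p = 1.17e-32), in a window of chromosome 8 with a median of -0.32, and Ptpn14 (-1.01, SE 0.044, adjusted p = 8.68e-26), the latter in a window with a median of 0.49. The other angiomotin genes, in the same list, fell as well, Amot from 33.5 to 13.4 cpm (log2 fold change -1.32, SE 0.054, adjusted p = 9.61e-27) and Amotl1 from 49.3 to 29.5 cpm (-0.74, SE 0.049, adjusted p = 1.15e-18). Map4k4 was higher by 0.97 (SE 0.024, adjusted p = 1.23e-35), in a window of chromosome 1 with a median of 0.57.

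Relatives, ligands and receptors of the 10 genes made a list of 18, of which 14 were tested, 11 fell, 1 rose and 2 did not pass the test (median log2 fold change -0.91), beside 35.2% lower and 69.5% called over all genes tested. The falls include Thbs2 and Comp, which passed the count minimum only through control, so the count and the median are not read as a result. The CCN genes Nov and Wisp1 fell by 1.71 and 1.78 on the log2 scale.

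Of the thrombospondins, Thbs3 fell from 31.1 to 11.5 cpm (log2 fold change -1.43, SE 0.056, adjusted p = 1.39e-27). Thbs2 had 25, 27 and 12 counts in control and 1, 7 and 4 in the lines labelled knockout. It passed the count minimum only through control, so its test is not given. The summed counts gave a ratio of 5.07, with a 95% interval for counting error of 2.71 to 10.3, and the fitted log2 fold change of -2.31 ran from -3.0 without knockout replicate 2 to -1.86 without knockout replicate 1. Sdc4, the gene of syndecan-4, a surface receptor that binds the matrix, fell from 70.8 to 29.5 cpm (-1.26, SE 0.041, adjusted p = 7.14e-31), Cd47 fell by 0.42 on the log2 scale (SE 0.121, adjusted p = 0.00188), and Lrp1, a receptor for thrombospondin-1, rose by 0.47 (SE 0.046, adjusted p = 9.16e-13).

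The relatives of Axl moved less than Axl. Mertk fell by 0.56 on the log2 scale (SE 0.153, adjusted p = 0.00124), but its groups overlapped. Its lines lay at 2.52 to 3.79 cpm in control and at 1.74 to 2.60 cpm in the libraries labelled knockout. The ligand gene Gas6 fell by 0.24 (SE 0.071, adjusted p = 0.0025), in a window of chromosome 8 with a median of -0.59. Tyro3 was not called (0.01, SE 0.033, adjusted p = 0.743).

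Marker lists of pluripotent and other cells were read beside the 10 genes, and they moved in both directions. The 12 pluripotency genes were all called, 9 higher and 3 lower, where 69.5% of all genes tested were called and 34.4% were higher. Their summed level was 5791 to 5905 cpm in control and 7313 to 7366 cpm in the libraries labelled knockout. Pou5f1, at 1146 and 1315 cpm, had the smallest rise on the log2 scale. Nanog and Tfcp2l1 rose by 1.13 and 1.56, in windows of 20 Mb with medians of 0.59 and 0.64. The falls were those of Zfp42 (-0.77), Lin28a (-0.44) and Klf2 (-0.17). Of 10 fibroblast markers 8 were tested, 6 fell and 2 did not pass the test. Of those tested 75% were called, all of them lower, beside 69.5% called and 35.2% lower over all genes tested. Among the falls, 3 genes passed the count minimum only through control. Pdgfra and Pdgfrb were not called, and their groups overlapped. The sum of the 10 markers was 61.2 to 63.5 cpm in control and 13.6 to 14.3 cpm in the libraries labelled knockout. Most of that difference lay in Col1a1, which went from 41.1 to 3.93 cpm, and Lum was at 0 in every library.

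Of 10 trophoblast markers 9 were tested, 6 fell, 2 rose and 1 did not pass the test. Of those tested 88.9% were called and 66.7% were lower, beside 69.5% and 35.2% of all genes tested. The sum of the 10 markers was 418 to 438 cpm in control against 97.2 to 101 cpm. Most of that difference lay in Krt8 (226 and 10.6 cpm) and Krt18 (118 and 6.47 cpm), keratins of simple epithelia in general. Tfap2c, at 53.3 and 70.6 cpm, and Eomes, at 4.68 and 6.21 cpm, rose, and Tpbpa was at 0 in every library.

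Of 10 primitive endoderm markers 9 were tested, 4 fell, 2 rose and 3 did not pass the test, with a sum of 190 to 196 cpm in control against 162 to 173 cpm. The share called, 66.7%, was near the 69.5% over all genes tested, and 44.4% were lower, beside 35.2%. Sox17 and Foxa2, among the falls, passed the count minimum only through control, and the groups of Foxa2 overlapped. Col4a1 fell from 104 to 31.7 cpm, in a window of chromosome 8 with a median of -0.59, and Lama1 rose from 76.1 to 123 cpm. Of 10 mesoderm markers 8 were tested, 3 fell, 2 rose and 3 did not pass the test. The shares called (62.5%) and lower (37.5%) were near those of all genes tested (69.5% and 35.2%). The sum of the mesoderm markers was 45.5 to 49.0 cpm in control against 13.6 to 14.4 cpm. Acta2 (28.1 and 1.404 cpm) and Hand1 (7.37 and 0.828 cpm) held most of that difference, and T, Tbx6 and Gsc did not pass the test. Mixl1 and Eomes rose, Mixl1 in a window of chromosome 1 with a median of 0.49. Hand1 and Eomes stand in both the trophoblast and the mesoderm list. The part of these cell types in the levels of the 10 genes was not tested, and in bulk libraries fewer cells of a type and less RNA per cell cannot be told apart.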

How the data were processed

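The values are counts of fragments per gene, deposited by the authors as raw counts from 6 TruSeq Stranded mRNA libraries (2 µg total RNA, 8 PCR cycles). The authors took out rRNA reads (Bowtie2), aligned what remained to mm10 (TopHat) and assigned fragments to genes by strand (htseq-count), discarding those in several genes or at several locations. The submitters' processing notes give Bowtie2 2.1.0, TopHat2 2.0.10, HTSeq 0.6.1 and CASAVA 1.8.2. The counts were not normalized.

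Symbols and coordinates came from GENCODE M21 on the same build, matched for 42425 of 43309 genes by Ensembl identifier. The 16823 genes that reached 10 counts in 1 or more libraries were tested in R 4.3.3 with edgeR 4.0.16 (TMM, glmQLFit, glmQLFTest, no covariate) at a Benjamini-Hochberg adjusted p of at most 0.05. Levels in cpm were scaled by TMM, and FPKM is that level per kilobase of the longest transcript. Promoter windows came from RefSeq. Intervals of summed counts are exact 95% intervals and, like the counts, cover counting error only.

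The 10 genes, the lists and the tests were chosen with earlier results of these data known. Named genes are the 10 genes, Zbtb24, a set of TEAD, Hippo and related genes, and of each other list at most 3 rises and 3 falls with a mean count of 50 or more and no overlap between the groups. Libraries were checked for duplicates: the 6 pairs within a group differed by 1.12 to 1.60 times the sampling variance and the 9 pairs between groups by 18.9 to 20.2 times. No library was thus a copy of another, and each was counted once. This check cannot show whether the libraries of a group are independent lines. The fitted common coefficient of variation within groups was 2.0%, and the standard errors and adjusted p rest on a spread this small. The test was run on simulated counts with a single common dispersion, in which 200 of 16338 genes were changed. It recovered 97% of these genes, and 5.83% of its calls were false. In the real data 69.5% of genes were called, so the simulation does not give the error rate there. Alternatives were the exact and the likelihood ratio test of edgeR, DESeq2 1.42.0, other scalings, filters and thresholds, the replicate number as a block, each library left out in turn, and, for levels and motifs, the union of exons and the part before the start site.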

Additional observations from a re-analysis of the deposited data

How the results depend on the processing

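The log2 fold changes of the 10 genes stayed below 0 under every alternative run, and 7 reached the added minimum of 1 on the log2 scale. Nothing is read from this, because the genes were chosen with this contrast in view. Over all genes tested 69.5% were called in the main run, and Ankrd1 passed the count minimum only through control. That minimum left 2865 genes called over all genes tested, 5 upstream Hippo genes, 7 relatives, 3 TEAD and cofactor genes and 6 other targets, and Zbtb24, at 0.99, no longer passed. Over all genes, 10326 were called with DESeq2 and 11697 with edgeR. Leaving out 1 library at a time gave 11059 to 11304 genes called over all genes and 20 to 22 upstream Hippo genes, with Zbtb24 at 0.96 to 1.03.

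Values of 2 genes not called changed sign: Stk4 was -0.022 with library totals only and ran from -0.0056 (without knockout replicate 3) to 0.052 with 1 library left out. Tyro3 was -0.036 with library totals only and ran from -0.0076 (without control replicate 2) to 0.035, with -0.0026 without knockout replicate 2. The call of Lats1 was lost with library totals only (adjusted p = 0.228) and without control replicate 1, 2 or 3 or knockout replicate 2 or 3 (adjusted p from 0.0522 to 0.123). With the union of exons as the length, the highest and lowest control levels of the 10 genes were 129 times apart. The cause of these changes was not tested.

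Deviations of same-numbered libraries from their group means had correlations of 0.0062, 0.072 and 0.015. Those of differently numbered libraries ran from -0.072 (control replicate 2 with knockout replicate 3) to 0.054 (control replicate 1 with knockout replicate 3). As differences within groups were small for the median gene, these values neither show nor exclude a pairing of the lines. The replicate block gave 11801 genes called over all genes. Ankrd1, with 2 to 5 counts in the libraries labelled knockout, is limited by depth.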
